A study of Mus musculus with 9 samples.

Results

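The long 5′ fragments of nuclear glutamate tRNAs are pieces that begin at the first base of the mature tRNA and end in or just before the anticodon loop. They were taken as every fragment of class tRF-5c or tiRNA-5 whose name contained Glu-TTC or Glu-CTC and that was not mitochondrial. This rule used names and classes only, not measured values, and it found 21 of the 200 fragments in the deposited table. The 21 came from 4 parent tRNAs: 6 from Glu-TTC-1, 6 from Glu-TTC-2, 5 from Glu-TTC-3 and 4 from Glu-CTC-2. Of these, 17 were tRF-5c of 28 to 32 nt and 4 were tiRNA-5 of 34 nt, 1 per parent. Of the other fragments used here, 0 came from glutamate tRNAs.

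Glutamate tRNAs carry glutamate to the ribosome, and the isoacceptors with the anticodons TTC and CTC read the codons GAA and GAG. Cells cut mature tRNAs into specific fragments. Cleavage in the anticodon loop, by angiogenin and other ribonucleases during stress, gives a long 5′ and a long 3′ piece called tiRNAs, and cuts a few bases upstream give the slightly shorter tRF-5c. Fragments of this kind have been reported to inhibit translation and to silence transcripts, and such 5′ pieces of glutamate tRNAs are among the abundant tRNA fragments of mouse sperm and of virus-infected human airway cells. No such function was measured in these eyes.

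Small RNA was sequenced from complexes of retinal pigment epithelium (RPE), choroid and sclera of C57BL/6 mice, with 3 control libraries, 3 from day 3 and 3 from day 7 after laser burns. Per the labels' protocols the mice were 6 to 8 weeks old, and burns were made in each eye with a 532 nm laser at 110 mW for 100 ms, placed 2 to 3 papillary diameters from the optic disc. The burns break Bruch's membrane, between RPE and choroid, and new choroidal vessels then grow through the break. The complexes therefore hold burned and unburned tissue together, and the labels give neither the number of animals per complex nor any treatment of the controls beyond the word control. The labelled tissue could not be checked against marker genes, because the table holds tRNA fragments only. Mapped reads ranged from 1204173 to 2155977 per library. The listed fragments took 75.7% to 76.0% of mapped reads in the controls, 56.0% to 62.1% at day 3 and 75.3% to 78.6% at day 7. Counts of the 21 fragments ranged from 4 to 9071.

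The 4 sequences of 34 nt are shown first, because they carried most of the reads and because they show how close the parents are. Each is the first 34 bases of a mature tRNA of 75 nt, written as DNA, 5′ to 3′, as the deposited table gives it. Capitals mark the 11 positions at which the 4 parents are not all alike.

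tiRNA-1:34-Glu-TTC-1: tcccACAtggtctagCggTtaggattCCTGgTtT

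tiRNA-1:34-Glu-TTC-2: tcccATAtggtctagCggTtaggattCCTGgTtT

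tiRNA-1:34-Glu-TTC-3: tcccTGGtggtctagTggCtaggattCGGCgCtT

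tiRNA-1:34-Glu-CTC-2: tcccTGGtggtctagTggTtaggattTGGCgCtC

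The parents form 2 pairs. Counting positions from 1 at the 5′ end and giving the first parent's base first, Glu-TTC-1 and Glu-TTC-2 differ over these 34 bases only by C6T. Glu-CTC-2 and Glu-TTC-3 differ by T19C, T27C and C34T, the last of which is the first base of the anticodon. Glu-TTC-3 therefore differs from Glu-TTC-1, which has the same anticodon, at 9 positions, but from Glu-CTC-2, which has the other, at only 3. The anticodon lies at positions 34 to 36 in all 4 parents, so the 34 nt form ends on the first anticodon base.

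The whole Glu-TTC-3 and Glu-CTC-2 tRNAs are shown with the anticodon in capitals, to place that end in the molecule.

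tRNA Glu-TTC-3: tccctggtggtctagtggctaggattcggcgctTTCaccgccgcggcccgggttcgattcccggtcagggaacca

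tRNA Glu-CTC-2: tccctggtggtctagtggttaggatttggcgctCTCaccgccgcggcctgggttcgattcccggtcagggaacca

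The 31 and 32 nt forms of the same pair are shown because the 32 nt forms rose at day 3 and both lengths fell between day 3 and day 7. They end 3 and 2 bases before the anticodon, and capitals mark the 2 positions at which the parents differ within these lengths.

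tRF-1:31-Glu-TTC-3: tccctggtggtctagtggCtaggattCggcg

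tRF-1:31-Glu-CTC-2: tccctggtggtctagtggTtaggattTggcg

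tRF-1:32-Glu-TTC-3: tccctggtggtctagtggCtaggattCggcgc

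tRF-1:32-Glu-CTC-2: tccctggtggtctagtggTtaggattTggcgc

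Each of the 21 fragments had 1 alignment in the deposited table. Base errors in reads were not tested, so a part of the counts of the less abundant parent of a pair may be reads of the other. RefSeq's GRCm38.p6 annotation lists 8 tRNA genes for Glu-TTC and 12 for Glu-CTC, which were not matched to the parents, so no coordinates are given.

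In the controls the 34 nt forms of 3 parents were among the most abundant fragments of the whole table. In CPM, which are reads per 1000000 mapped reads, and where 1 read is 1 whole fragment and no division by length is needed, the 34 nt Glu-TTC-1 form had 3330, 3019 and 3097 CPM in control replicates 1 to 3. It ranked 9 of 200 by control mean. The 34 nt Glu-TTC-2 form had 2200, 2086 and 1907 CPM and ranked 13. The 34 nt Glu-TTC-3 form had 1618, 988 and 700 CPM and ranked 16, and it was the most variable of the 3 in the controls. The 34 nt Glu-CTC-2 form stood apart, with 23.7, 60.0 and 39.9 CPM and a rank of 104. In Glu-CTC-2 the most abundant form was that of 31 nt, with 110, 138 and 132 CPM. The 28 to 32 nt forms of Glu-TTC-1 and Glu-TTC-2 had control means of 23.2 to 392 CPM, and the least abundant fragment, 29 nt Glu-TTC-3, had 4.90, 24 and 8.35 CPM.

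**Figure D1:**
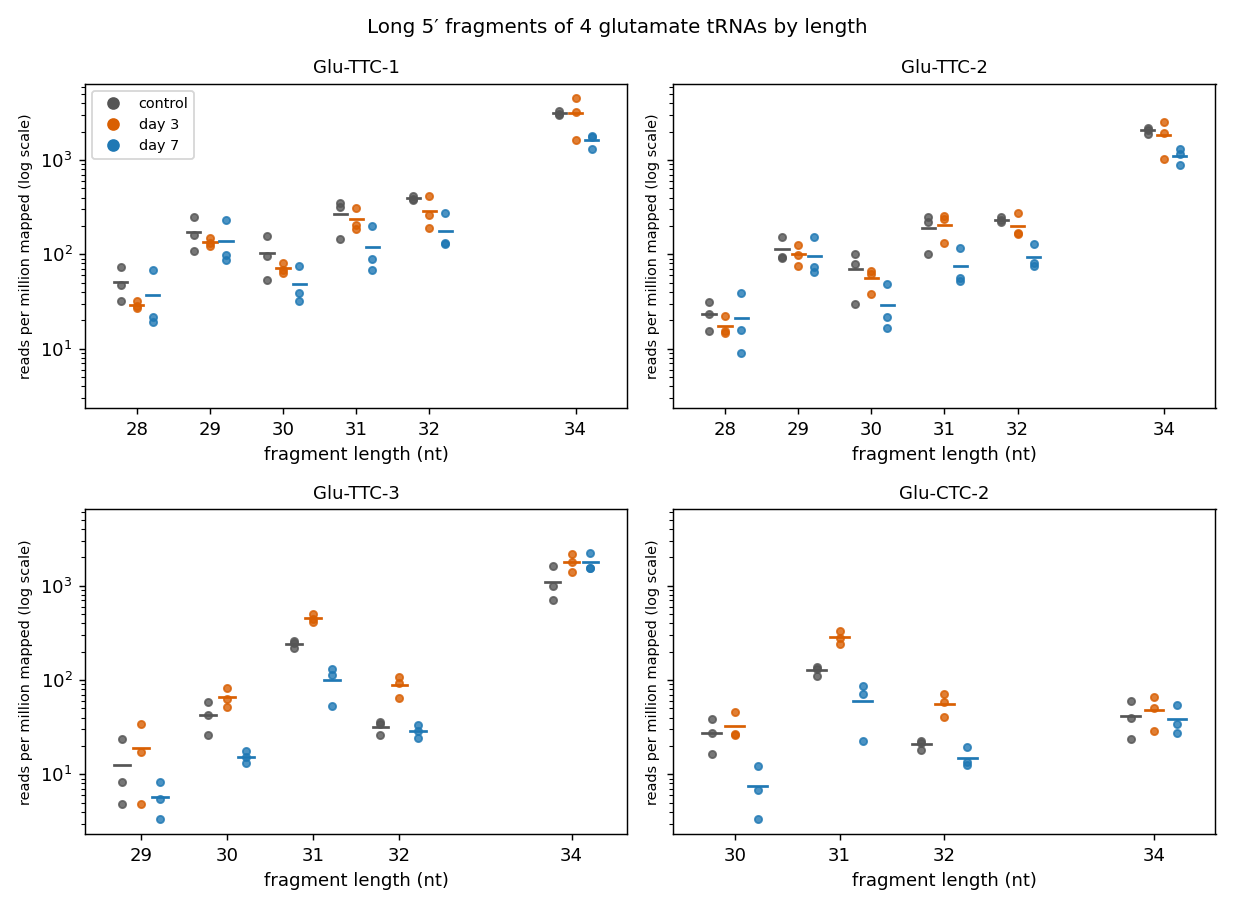
Level of each of the 21 fragments in each of 9 libraries, with fragment length in nt on the horizontal axis and CPM on a log scale on the vertical axis, 1 panel per parent tRNA. Points are libraries and bars are the means of 3 libraries. The 31 nt forms of Glu-TTC-3 and Glu-CTC-2 lie highest at day 3 and lowest at day 7 in all libraries. The 34 nt forms of Glu-TTC-1 and Glu-TTC-2 have their lowest mean at day 7, with day 3 replicate 2 within the day 7 range.

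The first comparison asked which glutamate fragments differed 3 days after the burns. Forms of 32 nt of Glu-TTC-3 and Glu-CTC-2 rose, and no fragment of Glu-TTC-1 or Glu-TTC-2 passed the test. In edgeR's quasi-likelihood test with Benjamini-Hochberg adjustment over all 200 fragments, 2 of the 21 were higher at day 3, against 10% called higher in the whole table, and 0 were lower, against 11.5%. The median log2 fold change of the 21 was -0.04, and that of all 200 fragments was also -0.04. The CPM of day 3 and control libraries did not overlap for 5 of the 21, 4 higher and 1 lower, against 41.5% of the table, 22% higher and 19.5% lower. In whole complexes, fewer cells of a type and less RNA per cell cannot be told apart.

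The 32 nt Glu-TTC-3 form had 26.2, 36.0 and 34.3 CPM in the controls and 64.6, 92.6 and 109 CPM at day 3. All day 3 libraries lay above all controls. The rise was 2.67-fold, a log2 fold change of 1.42 with a standard error (SE) of 0.34 (edgeR adjusted p = 0.00543).

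The 32 nt Glu-CTC-2 form had 18, 21.7 and 22.7 CPM in the controls and 40.3, 58.0 and 70.8 CPM at day 3. Again the groups did not overlap, and the rise was 2.62-fold, a log2 fold change of 1.39 with an SE of 0.36 (edgeR adjusted p = 0.0077). This call did not hold without control replicate 2, where the log2 fold change was 1.32 (edgeR adjusted p = 0.0545). The range over the 17 alternatives was 0.00285 to 0.0545.

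The 31 nt forms of the same parents did not pass at day 3, although their groups did not overlap. For Glu-TTC-3 the 31 nt form had 217, 259 and 246 CPM in the controls and 508, 418 and 442 CPM at day 3 (log2 fold change 0.89, SE 0.42, edgeR adjusted p = 0.104). For Glu-CTC-2 it went from 110, 138 and 132 CPM to 335, 241 and 282 CPM (log2 fold change 1.15, SE 0.45, edgeR adjusted p = 0.0642). This second fragment did pass in 6 of 18 alternatives. All 9 fragments of Glu-TTC-3 and Glu-CTC-2 had log2 fold changes above 0, from 0.20 to 1.42 with a median of 0.62. Without control replicate 1, and without day 3 replicate 1, 2 or 3, 8 were above 0 and 1 below. Without control replicate 2 or 3 all 9 stayed above 0. By contrast 11 of the 12 fragments of Glu-TTC-1 and Glu-TTC-2 were below 0, with a median of -0.29 and a range of -0.82 to 0.12. Scaling to the sum of listed counts raised the median of all 200 fragments by 0.41, to 0.37, and under it 8 of those 12 were above 0, with a median of 0.08, below the median of the table. The same scaling called 49 of the 200 higher and 14 lower, where the fit reported here called 20 higher and 23 lower.

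The 34 nt forms of Glu-TTC-1 and Glu-TTC-2 spread widely at day 3. The Glu-TTC-1 form had 4508, 1652 and 3220 CPM, so that day 3 libraries lay both above and below every control. The Glu-TTC-2 form had 2528, 1023 and 1954 CPM, with the same library lowest. Their log2 fold changes were -0.04 (SE 0.40) and -0.20 (SE 0.40), and neither passed edgeR's test (adjusted p = 0.936 and 0.71). The 34 nt Glu-TTC-3 form had 1409, 1767 and 2161 CPM at day 3, and day 3 replicate 2 was not its lowest library (log2 fold change 0.61, SE 0.39, edgeR adjusted p = 0.236).

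Summed over the 21 fragments, the level was 8854, 8738 and 7844 CPM in the controls, 11227, 6688 and 9482 CPM at day 3, and 6717, 4614 and 5580 CPM at day 7. On this scale, which leaves out TMM factors, day 3 overlapped with the controls, and all day 7 libraries lay below all controls. The TMM factor was 0.749 for day 7 replicate 3 and 1.09 for control replicate 3. With the factors applied, day 7 replicate 3 lay above control replicate 3, so the groups overlapped and the fall at day 7 was smaller. The mean log2 difference was 0.08 for day 3 against control (exact two-sided permutation p = 0.8) and -0.60 for day 7 against control (exact permutation p = 0.1, the smallest that 3 libraries against 3 allow). Across the 66 permutation tests of sums and ratios the smallest adjusted p was 0.275, so none of those given here passed.

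At day 7 no glutamate fragment passed the test against the controls, but most lay below them. The count was 0 of 21 in edgeR, against 4.0% called in the whole table, 3.5% higher and 0.5% lower. At an unadjusted p under 0.05 there were 10 of 21 in edgeR, beside 38 of all 200. DESeq2 called 3 of the 21, all lower, beside 7 higher and 5 lower in the whole table, and limma-voom called 0, beside 7 higher and 0 lower. Of the 21, 17 had a log2 fold change below 0. Their median was -0.68, while the median of all 200 fragments was 0.09. Scaling to mapped totals without TMM factors lowered the median of the table by 0.26 and the median of the 21 by 0.40, and 4 of the 21 were then called lower, beside 7 higher and 7 lower in the whole table. The TMM factors of day 7 replicates 1 to 3 were 1.14, 0.783 and 0.749, and those of the other 6 libraries were 0.962 to 1.13. Control and day 7 libraries did not overlap in CPM for 8 of the 21, all lower at day 7, against 21% of the table in either direction and 12% lower.

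The 34 nt Glu-TTC-1 form lay below the control range, at 1774, 1314 and 1815 CPM at day 7 against 3019 CPM or more in the controls. The log2 fold change was -0.67 with an SE of 0.40 (edgeR adjusted p = 0.383). The 34 nt Glu-TTC-2 form had 1161, 887 and 1295 CPM at day 7, also below every control (-0.60, SE 0.40, edgeR adjusted p = 0.452). For the 34 nt Glu-TTC-3 form the direction was the other one, with 2254, 1548 and 1538 CPM at day 7, which overlapped with control replicate 1 (0.91, SE 0.40, edgeR adjusted p = 0.203). It passed only without control replicate 1 among the 18 alternatives.

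The 3 fragments with the smallest p at day 7 against control shared an adjusted p of 0.111 in edgeR. The 32 nt Glu-TTC-2 form had 250, 230 and 221 CPM in the controls and 130, 80.4 and 74.5 CPM at day 7. The 30 nt Glu-CTC-2 form had 16.3, 38.9 and 27.4 CPM in the controls and 3.32, 12.3 and 6.90 CPM at day 7. The 30 nt Glu-TTC-3 form had 26.2, 58.9 and 43.1 CPM in the controls and 13.3, 17.9 and 15.2 CPM at day 7. In all 3 the day 7 libraries lay below all controls.

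Between day 3 and day 7 the 30, 31 and 32 nt forms of Glu-TTC-3 and Glu-CTC-2 fell. In edgeR 7 of the 21 were lower at day 7 than at day 3, against 11.5% called lower in the whole table, and 0 were higher, against 23%. The 7 comprised all 6 fragments of 30 to 32 nt from Glu-TTC-3 and Glu-CTC-2 and 1 from Glu-TTC-2. None of the 4 forms of 34 nt passed. The CPM of day 7 and day 3 libraries did not overlap for 8 of the 21, all lower at day 7, against 36% of the table, 21% lower and 15% higher. The median log2 fold change of the 21 was -0.74, and that of all 200 fragments was 0.15. With the sum of listed counts as scale, which lowered the median of the table by 0.65, 14 of the 21 were lower and 0 higher, and the table's split went from 46 higher and 23 lower to 9 higher and 63 lower. All 6 forms named above were called lower under either scale. This comparison shares the day 3 libraries with the first, so the fall at day 7 and the rise at day 3 are not independent of each other.

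The 31 nt Glu-TTC-3 form fell from 508, 418 and 442 CPM at day 3 to 53.1, 114 and 131 CPM at day 7, also below its controls. The fall was 3.45-fold, a log2 fold change of -1.79 with an SE of 0.43 (edgeR adjusted p = 0.00533). The 31 nt Glu-CTC-2 form fell from 335, 241 and 282 CPM to 22.4, 70.3 and 85.5 CPM, a fall of 3.57-fold (-1.83, SE 0.47, edgeR adjusted p = 0.00759). In both, day 7 replicate 1 was the lowest of the 9 libraries.

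The 32 nt Glu-TTC-3 form returned from 64.6, 92.6 and 109 CPM to 29.1, 24.6 and 33.1 CPM, within the range of the controls at its upper 2 values (-1.27, SE 0.34, edgeR adjusted p = 0.0101). The 32 nt Glu-CTC-2 form had 12.5, 13.4 and 19.3 CPM at day 7 (-1.53, SE 0.37, edgeR adjusted p = 0.00533). Neither passed against the controls at day 7 in edgeR, with log2 fold changes of 0.15 (SE 0.34) and -0.15 (SE 0.38).

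The 30 nt Glu-TTC-3 form fell from 83.0, 63.1 and 51.3 CPM at day 3 to the day 7 values given above (-1.75, SE 0.38, edgeR adjusted p = 0.00398). The 30 nt Glu-CTC-2 form fell from 45.7, 26.2 and 26.9 CPM (-1.72, SE 0.49, edgeR adjusted p = 0.0138). Its call was lost without day 3 replicate 1 (-1.35, edgeR adjusted p = 0.0768) and without day 7 replicate 1 (-1.28, edgeR adjusted p = 0.0632). Without day 7 replicate 2 the change was -2.37, and its counts were low, at 4, 22 and 10 reads at day 7. For the other 5 of these 6 fragments the call held in every alternative run.

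The single called fragment from the other pair of parents was the 31 nt Glu-TTC-2 form. It had 101, 250 and 223 CPM in the controls, 254, 236 and 131 CPM at day 3, and 115, 51.9 and 56.6 CPM at day 7. Day 7 lay below day 3 in all libraries but overlapped with the controls (-1.25, SE 0.40, edgeR adjusted p = 0.0223). Its call was lost without day 3 replicate 1 (-1.03, edgeR adjusted p = 0.0918), without day 3 replicate 2 (-1.16, 0.0585) and without day 7 replicate 2 (-1.12, 0.0766).

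**Figure D2:**
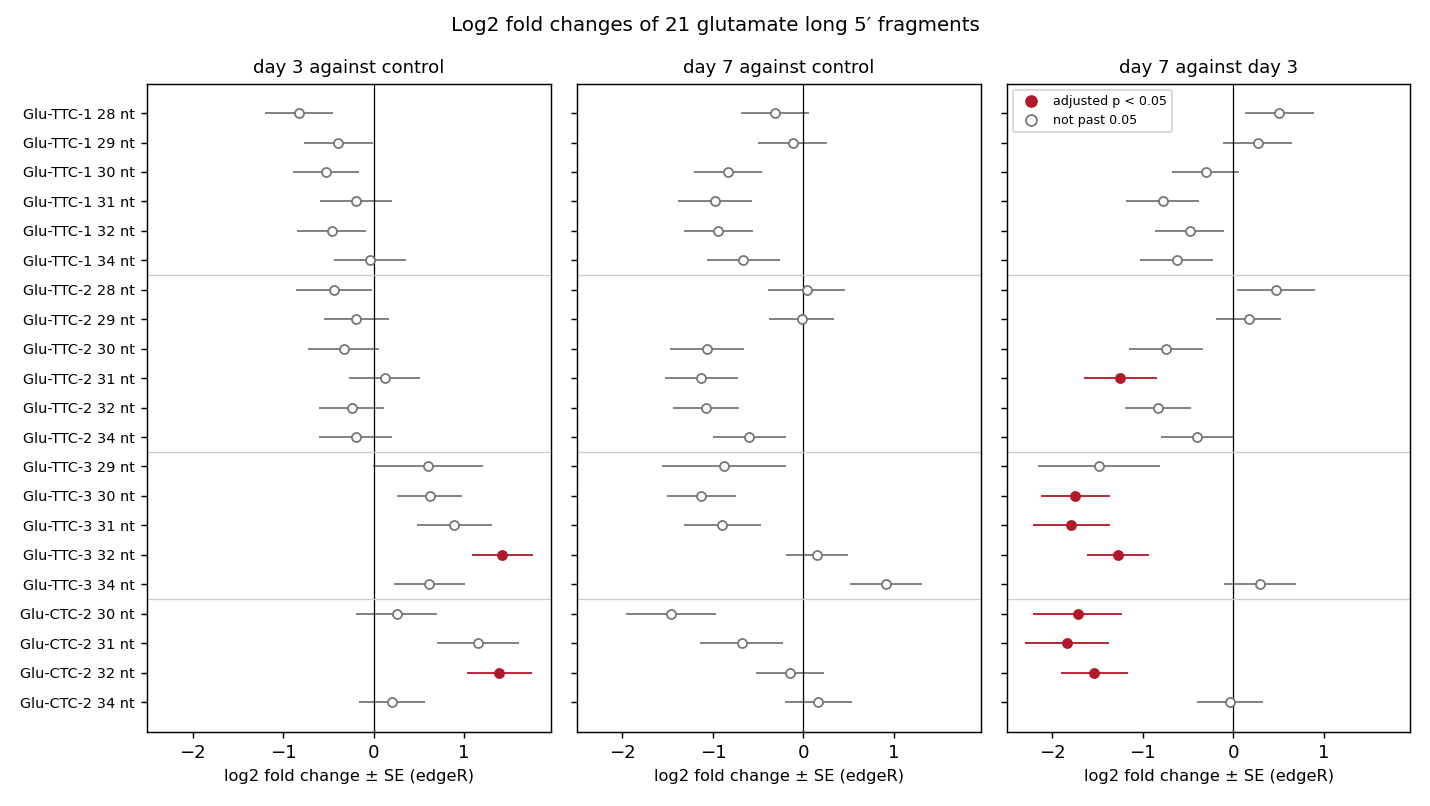
Log2 fold change of the 21 fragments in 3 comparisons, with the change on the horizontal axis, bars of 1 SE from the edgeR fit, and fragments ordered by parent and length on the vertical axis. Filled red points passed an adjusted p of 0.05: the 2 forms of 32 nt at day 3, none at day 7 against control, and 7 forms at day 7 against day 3.

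Library scaling cancels when a fragment is compared with the other lengths of its own parent, so each count was divided by the summed counts of the parent's other long 5′ fragments. In a limma fit over the 93 long 5′ fragments whose parent had at least 2, no glutamate fragment passed for its share at day 3 (0 of 21, with 0 at an unadjusted p under 0.05, against 5.38% called in the fit, 3.23% higher and 2.15% lower). At day 7 against control 3 of 21 did, against 10.8%, and all were forms of Glu-TTC-3. They were 1 higher, against 6.45%, and 2 lower, against 4.3%. The lengths of a parent share a total, so a higher share of 1 length and lower shares of others are not separate results. This holds for the whole fit too. Where a parent had only 2 fragments, their changes mirrored each other, as for valine at day 7 against day 3 (log2 changes of -4.51 and 4.51). The percentages called in the fit can therefore count 1 result more than once.

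In Glu-TTC-3 the 34 nt form made up 85.5%, 72.3% and 67.8% of the parent's counts in the controls and 67.7%, 74.4% and 78.1% at day 3. At day 7 it made up 95.6%, 90.7% and 89.3%, above all 6 other libraries. The group means were 75.2% ± 9.18 (SD, n = 3) in the controls, 73.4% ± 5.27 (SD, n = 3) at day 3 and 91.8% ± 3.33 (SD, n = 3) at day 7. Relative to the other lengths, the 34 nt form was higher at day 7 than in the controls by a log2 change of 1.92 with an SE of 0.46 (limma adjusted p = 0.019). The 31 nt form went the other way by -2.04 (SE 0.48, limma adjusted p = 0.019), from 11.5%, 19% and 23.9% of the parent's counts in the controls to 2.25%, 6.67% and 7.61% at day 7. The 30 nt form fell likewise by -1.88 (SE 0.48, limma adjusted p = 0.0205).

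Whether these 3 shares passed depended on which libraries were included. The count of 3 dropped to 0 without control replicate 3 and to 0 without day 7 replicate 1, and to 1 without control replicate 2, while the log2 change of the 34 nt form stayed between 1.49 and 2.36 whichever library was left out.

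At day 7 against day 3 the shares of 5 of 21 fragments passed in limma, against 19.4% of the fit, 2 higher against 6.45% and 3 lower against 12.9%. In Glu-TTC-3 the 34 nt form was higher by 2.11 (SE 0.46, limma adjusted p = 0.0104), and the 30, 31 and 32 nt forms were lower by log2 changes of -1.75, -2.19 and -1.29. In Glu-CTC-2 the 34 nt form was higher by 2.03 (SE 0.55, limma adjusted p = 0.0205). This value ranged from 1.28 to 2.54 with each library left out, and its call was lost without day 3 replicate 1 (1.61, limma adjusted p = 0.0855) and without day 7 replicate 1 (1.28, limma adjusted p = 0.102). It made up 6.40%, 13.5% and 14.8% of the parent's counts at day 3 and 58.9%, 26.5% and 19.8% at day 7. Its CPM was 28.8, 51.0 and 65.9 at day 3 and 54.8, 34.6 and 27.6 at day 7, with an edgeR log2 fold change of -0.04 (SE 0.36), so the share differed while the level showed no difference beyond its spread. Without day 3 replicate 1 the count of 5 dropped to 0, without day 7 replicate 1 to 2 and without day 3 replicate 2 to 3.

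In Glu-TTC-1 and Glu-TTC-2 the share of no length passed in any comparison in limma. The 34 nt form made up 67.7% to 82.7% of Glu-TTC-1 counts over all 9 libraries and 62.4% to 85% of Glu-TTC-2 counts. Day 7 values of both parents spanned the control values. That Glu-TTC-3 differed from these parents in its length make-up at day 7 was not tested as an interaction. Each parent's own ratio of 34 nt to shorter counts was a measure chosen after the values were seen. Between day 7 and control it differed on the log2 scale by 1.92 for Glu-TTC-3 (exact permutation p = 0.1). For Glu-CTC-2 the difference was 1.18, with overlapping groups (exact permutation p = 0.2). It was 0.06 for Glu-TTC-1 (exact permutation p = 0.9) and 0.16 for Glu-TTC-2 (exact permutation p = 0.7).

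**Figure D3:**
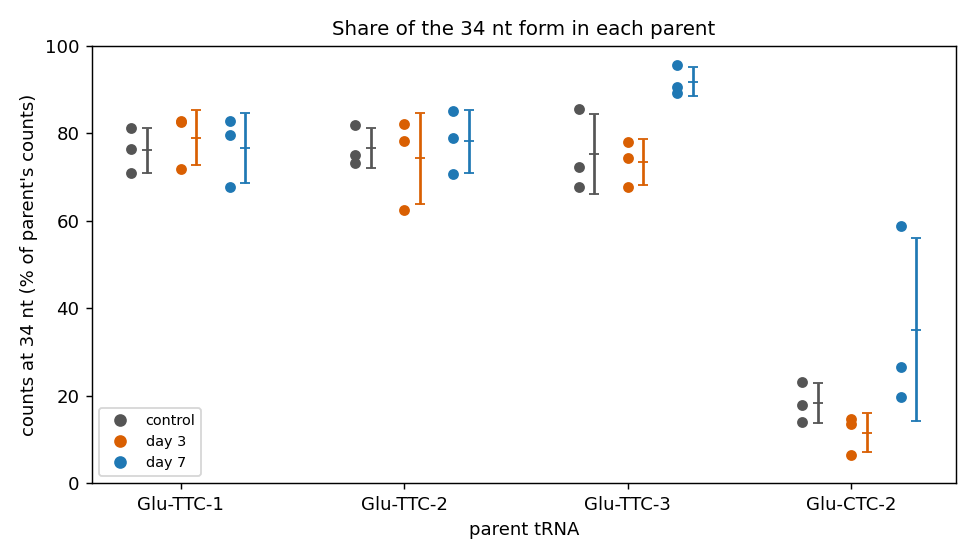
Percent of each parent's long 5′ counts in the 34 nt form, with the 4 parent tRNAs on the horizontal axis. Points are libraries, and bars are means with SD of 3 libraries per group. For Glu-TTC-3 the 3 day 7 libraries, at 89.3% to 95.6%, lie above the other 6, while for Glu-TTC-1 and Glu-TTC-2 the groups overlap. For Glu-CTC-2 the day 7 libraries lie above those of day 3 and overlap with the controls.

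With all parents pooled, counts of 32 nt or more over counts of 31 nt or less gave log2 ratios of 2.97, 1.86 and 2.15 in the controls, 2.24, 1.57 and 2.44 at day 3, and 2.46, 2.79 and 2.94 at day 7. Day 7 lay above day 3 by 0.65 on average without overlap (exact permutation p = 0.1) and overlapped with the controls (difference 0.40, exact permutation p = 0.4). The difference between day 3 and control was -0.24 (exact permutation p = 0.6). Glu-TTC-3 and Glu-CTC-2 together held 16.0% to 41.1% of the counts in this pooled ratio, so the other 2 parents held the larger part in every library.

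The share of each parent in all glutamate counts differed between libraries. Glu-TTC-3 supplied 21.4%, 15.6% and 13.2% of them in the controls, 18.5%, 35.5% and 29.2% at day 3, and 35.1%, 37.0% and 30.9% at day 7. Every day 7 library was above every control, and day 3 overlapped with both. Glu-CTC-2 supplied 1.90%, 2.96% and 2.83% in the controls, 4.01%, 5.63% and 4.70% at day 3, and 1.38%, 2.83% and 2.50% at day 7. All day 3 libraries lay above all others. Counts of Glu-CTC-2 over those of the 3 Glu-TTC parents were higher at day 3 than in the controls by 0.94 on the log2 scale, without overlap (exact permutation p = 0.1). Day 7 lay below day 3 in all libraries (difference -1.18, exact permutation p = 0.1). Against the controls the day 7 difference was -0.24 (exact permutation p = 0.6).

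**Figure D4:**
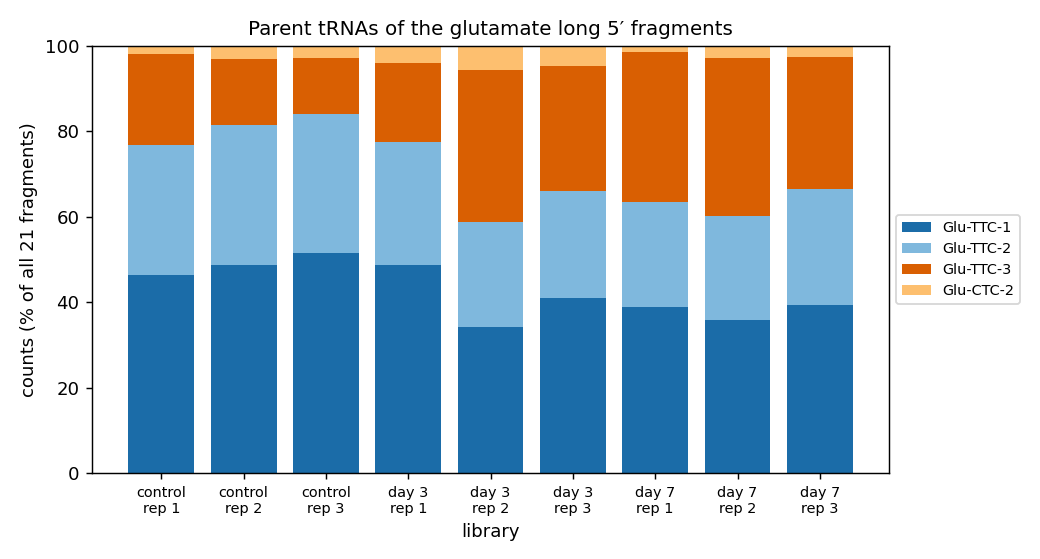
Percent of the counts of all 21 fragments that came from each of 4 parent tRNAs, as stacked bars, 1 per library. Glu-TTC-3 makes up 13.2% to 21.4% in the 3 controls and 30.9% to 37.0% in the 3 day 7 libraries.

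The 2 pairs of close parents had different ratios across lengths. At 34 nt, Glu-TTC-2 counts were 61.6% to 69.1% of those of Glu-TTC-1, from which it differs by 1 base, in the controls, 56.1% to 61.9% at day 3 and 65.4% to 71.4% at day 7. Over all lengths they were 59.1% to 71.4% of the Glu-TTC-1 counts in the 9 libraries, and the groups overlapped in every comparison. Glu-CTC-2 counts, in contrast, were 50.8% to 53.5% of those of Glu-TTC-3 at 31 nt in the controls and 60.3% to 68.8% at 32 nt. At 34 nt they were 1.46%, 6.08% and 5.70%. This gap between 32 nt and 34 nt was present in all 9 libraries, with 42.9% to 68.8% at 32 nt and 1.46% to 6.08% at 34 nt. The 34 nt form is the only length of the pair whose last base differs (C34T). What sets the gap was not tested.

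The ratio of Glu-CTC-2 to Glu-TTC-3 counts depended on the lengths taken. Over all lengths it was 8.89%, 19% and 21.5% in the controls, 21.6%, 15.9% and 16.1% at day 3, and 3.95%, 7.65% and 8.09% at day 7. Over 30 to 32 nt, a range chosen after the values were seen, the log2 ratio was -0.90, -0.83 and -0.83 in the controls and -1.31, -0.70 and -0.68 at day 7, and those groups overlapped (difference -0.04, exact permutation p = 1.0). At day 3 it was -0.64, -0.82 and -0.66, above all controls by 0.15 on average (exact permutation p = 0.1).

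**Figure D5:**
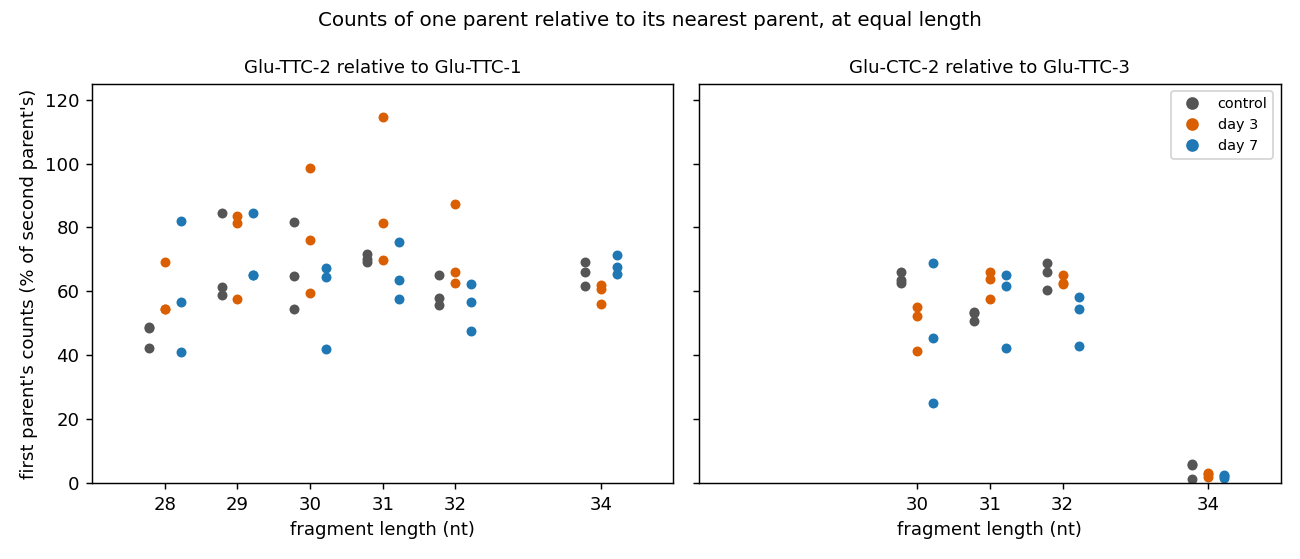
Counts of Glu-TTC-2 as a percent of Glu-TTC-1 counts (left) and of Glu-CTC-2 as a percent of Glu-TTC-3 counts (right), with fragment length in nt on the horizontal axis and 1 point per library. The right panel falls from 42.9% to 68.8% at 32 nt to 1.46% to 6.08% at 34 nt in all groups, and the left panel has no such step.

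Between the pairs, equal lengths were also set against each other. At 30 to 32 nt the log2 ratio of Glu-TTC-3 counts to those of Glu-TTC-1 and Glu-TTC-2 was -1.83, -2.08 and -2.02 in the controls, -1.09, -0.70 and -0.49 at day 3, and -3.13, -1.30 and -1.18 at day 7. Day 3 lay above all controls (difference 1.22, exact permutation p = 0.1), and day 7 fell on both sides of them. At 34 nt the same ratio was -1.77, -2.37 and -2.84 in the controls, -2.32, -0.60 and -1.26 at day 3, and -0.38, -0.51 and -1.02 at day 7. Here day 7 lay above all controls (difference 1.69, exact permutation p = 0.1), while day 3 overlapped with them. Both ratios were chosen after the values were seen.

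Other long 5′ fragments give the frame for these counts. Of the 81 other nuclear tRF-5c and tiRNA-5 fragments, 13 were higher and 2 lower at day 3 in edgeR, with a median log2 fold change of 0.43, and 7 were higher and 1 lower at day 7 against control, with a median of 0.22. Among 10 lysine fragments 4 were higher at day 3 and 0 differed at day 7. Among 15 valine fragments 4 were higher and 1 lower at day 3, and 0 differed at day 7. Among 11 Gly-CCC fragments 2 were higher at day 3, and 3 were higher at day 7, with a median of 0.73 there. The 21 glutamate fragments had a day 7 median of -0.68, below those of the 81 others and of these 3 lists. The comparisons with control share the control libraries. At day 7 against day 3, 10 of the 81 were higher and 13 lower, with a median of -0.15. Changed shares within a parent were not particular to glutamate. At day 7 against control limma called 4 of 11 Gly-CCC shares higher and 1 lower, and 0 of 9 for lysine and for valine. At day 3 it called 2 of 9 lysine shares higher and 2 lower, and 0 for valine and Gly-CCC. At day 7 against day 3 it called 2 higher and 2 lower for lysine, 1 and 1 for valine, and 0 and 2 for Gly-CCC.

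Across the 9 libraries the log2 level of the most abundant fragment, 34 nt Glu-TTC-1, had a Pearson correlation of 0.986 with that of 34 nt Glu-TTC-2 and of -0.33 with that of 34 nt Glu-TTC-3. Outside the glutamate fragments the 5 most alike were the 30 nt forms of Gly-CCC-1 (0.856), of Gly-CCC-3-M2 (0.754) and of Gly-CCC-2 (0.699), a 16 nt form of Leu-CAG-1-M3 (0.683) and the 34 nt form of Asp-GTC-2 (0.681). These values describe 9 libraries that share their depth and groups.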

How the data were processed

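The assay was small RNA sequencing of tRNA fragments. Per the labels' protocols, RNA was treated before ligation to remove amino acids and cyclic phosphates, phosphorylate 5′ ends and demethylate m1A and m3C, and libraries were cut from a gel, which limits the lengths seen. Per the submitters' processing notes the build was mm10 and the tools included FastQC, Bowtie and edgeR, with no version given. The authors deposited raw counts per fragment and library, and CPM, which are counts per 1000000 mapped reads, per the file headers. Count over CPM gave the mapped total. In addition, 7 empty lines were not used here. Of the 189 counts of these fragments 71.4% were even, against 61.5% of the 1611 others. The cause was not tested.

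Counts were fitted with edgeR 4.0.16 (R 4.3.3) over all 200 fragments and 9 libraries: mapped totals with TMM factors (0.749 to 1.14), filterByExpr (0 removed), a mean per group, quasi-likelihood F tests, two-sided, Benjamini-Hochberg over 200, threshold 0.05. The common biological coefficient of variation was 34.9%. Shares within a parent were fitted with limma 3.58.1 on log2 ratios with 0.5 added to counts. Sums and ratios were compared by two-sided exact permutation over 20 assignments. Whether each complex is a separate animal is not in the labels. The p-values therefore reflect the spread among these 9 samples, which may be technical only. CPM means use mapped totals, and fold changes also use TMM factors.

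Per-library values are given for the fragments that passed edgeR in any comparison, the most abundant of each parent, and the 2 with the smallest unadjusted p where fewer than 3 passed. The members and lists were chosen with earlier results of these data known. Alternatives were RLE factors, no TMM, listed counts as scale, DESeq2 1.42.0, limma-voom, other filters, fits of 2 groups, a replicate block and each library left out. The code was tested on simulated data for day 3 against control (200 fragments, 40 changed, 20 sets): edgeR recovered 90.5% of 4-fold and 29.5% of 2-fold changes with 4.38% of calls false, and the share fit over 93 fragments recovered 62.5% of 4-fold changes.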

Additional observations from a re-analysis of the deposited data

Results flagged for a closer look

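For 7 fragments the change at day 3 differed from the change at day 7 by edgeR's test of day 7 against day 3, which is the test of that difference because both changes use the same controls. They were 7 of 21, against 34.5% called in either direction in the whole table. The differences, as log2 fold changes, were -1.72 for 30 nt Glu-CTC-2, -1.83 for 31 nt Glu-CTC-2, -1.53 for 32 nt Glu-CTC-2, -1.25 for 31 nt Glu-TTC-2, -1.75 for 30 nt Glu-TTC-3, -1.79 for 31 nt Glu-TTC-3 and -1.27 for 32 nt Glu-TTC-3. For 5 of 21 fragments the change of the share within the parent differed between the days by limma, against 19.4% in either direction over the fit. The differences were 2.03 for 34 nt Glu-CTC-2, -1.75 for 30 nt Glu-TTC-3, -2.19 for 31 nt Glu-TTC-3, -1.29 for 32 nt Glu-TTC-3 and 2.11 for 34 nt Glu-TTC-3. Groups of 3 libraries are too small for a test of single outlying libraries.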

How the results depend on the processing

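Over the results that answer a comparison, 160 values under an alternative were scored as the same, 5 changed direction, and of the counts of calls 9 were larger and 9 smaller. A small change in a count of calls was also scored as the same, such as 3 at day 3 in DESeq2. The permutation p of sums and ratios cannot go below 0.1, so these could not cross the threshold under any alternative. For them the score speaks to direction only. The summed level at day 3 against control was -0.19 when scaled to listed counts outside Gly-GCC and ranged from -0.088 to 0.29 with each library left out. Calls at day 3, 2 in the fit reported, were 5 with listed counts as scale, 4 with only the 2 groups compared and 1 with a mean of at least 100 CPM, and 1 to 4 with each library left out. Calls at day 7 against control, 0 in the fit reported, were 4 without TMM, 5 with listed counts as scale, 3 in DESeq2 and 0 to 4 with each library left out. Calls at day 7 against day 3, 7 in the fit reported, were 14 with listed counts, 3 with a mean of at least 100 CPM and 5 to 8 with each library left out. Those 3 were the 31 nt forms of Glu-TTC-3, Glu-CTC-2 and Glu-TTC-2, the only ones of the 7 that the filter kept. With each library left out, the length ratio at day 3 ranged from -0.48 to 0.077, the Glu-CTC-2 over Glu-TTC ratio at day 7 against control from -0.44 to 0.082, and the changed shares from 0 to 4 at day 7 against control and from 0 to 6 at day 7 against day 3. For single fragments, the log2 fold change of 34 nt Glu-TTC-1 at day 3 was 0.030 with RLE factors and in DESeq2 and 0.35 with listed counts, and -0.46 to 0.27 with each library left out. That of 34 nt Glu-TTC-2 was 0.19 with listed counts and -0.56 to 0.093 with each library left out, and that of 34 nt Glu-TTC-3 at day 7 against day 3 was -0.40 with listed counts. With each library left out, the share of 34 nt Glu-TTC-1 changed by -0.19 to 0.41 at day 7 against control and -0.49 to 0.16 at day 7 against day 3, that of 34 nt Glu-TTC-2 by -0.44 to 0.29 at day 3, -0.15 to 0.47 at day 7 against control and -0.13 to 0.61 at day 7 against day 3, and that of 34 nt Glu-TTC-3 by -0.49 to 0.25 at day 3. None of these values of single fragments passed in the fits reported, and for all of these values the cause was not tested.

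Same-numbered libraries were not paired: after removal of group means, 2 of 9 such pairs correlated above 0.1. A replicate block gave 2, 0 and 7 called fragments and 0, 2 and 4 changed shares in the 3 comparisons; with it the permutation p of the summed level at day 7 against control was 0.25, the smallest that 3 pairs allow.

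With 3 libraries per group the permutation tests cannot go below 0.1, and in simulations 2-fold changes were mostly missed. Neighbouring lengths of a parent are not independent.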
